A study of Rattus norvegicus with 6 samples.

Results

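The 10 genes described here carry glucose and fructose across renal cell membranes or catalyse the steps of glucose synthesis that bypass glycolysis. They were taken by name from the gene symbols of the deposited tables, and the rule itself holds no threshold on a measured value. The set holds the gluconeogenic enzymes *Pc*, *Pck1*, *Pck2*, *Fbp1* and *G6pc*, the Na+-coupled glucose carriers *Slc5a1* and *Slc5a2*, and the facilitative carriers *Slc2a1*, *Slc2a2* and *Slc2a5*. All 10 were found among the 17051 genes of the tables, each with a single transcript, and all 10 were among the 11553 genes tested for a difference between diets.

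Kidney cells of the proximal tubule both reclaim filtered glucose and make new glucose, mostly from lactate, glutamine and glycerol. Pyruvate is carboxylated to oxaloacetate, which PEPCK turns into phosphoenolpyruvate, and fructose-bisphosphatase and glucose-6-phosphatase remove the phosphate groups further along the path. When the kidney breaks down glutamine to ammonia, the carbon left over can enter the same path. At the luminal membrane SGLT2 and SGLT1 take up glucose together with sodium, and GLUT2 and GLUT1 let it leave across the basolateral membrane.

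Kidney tissue came from male Sprague Dawley rats, with 3 rats on each diet. Rats 61, 71 and 88 formed the AL group and ate standard powdered chow ad libitum. Rats 64, 67 and 69 formed the HD group, and their chow held an amino acid mixture composed like hemoglobin at a daily dose of 3 g per kg. Feeding lasted 7 days in both groups and the rats were randomized. Their age is not given in the sources used here, and all rats had surgery under isoflurane with an infusion of para-aminohippuric acid after the diet. Each rat gave a library of its own, so the spread below is between animals. The RNA was selected by its poly(A) tail and sequenced without strand information.

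Estimated counts summed to between 12499945 and 30466461 per rat. Levels are counts scaled to library size with TMM normalization (CPM), and a positive log2 fold change means a higher level with the HD diet. Markers of proximal tubule, thick ascending limb and collecting duct were all detected, whereas albumin (*Alb*), the main secreted product of hepatocytes, was at most 1.79 CPM in any rat. In bulk tissue, fewer cells of a type and less RNA per cell cannot be told apart. The 14 proximal tubule markers summed to between 20710 and 23010 CPM in the AL rats and between 23250 and 28410 CPM in the HD rats, and 12 of the 14 had a log2 fold change above 0 (median 0.30). The part of this shift in the differences of the glucose genes was not tested.

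Promoters of 9 of the 10 genes were found in the RefSeq annotation of build GRCr8 as the 250 bases before and the 50 bases after the start of the gene, and *Pc* was not matched. The promoters of the PEPCK pair and of *G6pc* are shown because these genes hold the widest gap between members with the same reaction and the widest spread within a group of rats. Each is written from 5′ to 3′, and capitals mark a match to a searched motif on either strand. The windows are chr3:182348322-182348621 for *Pck1*, chr15:32997603-32997902 for *Pck2* and chr10:86807409-86807708 for *G6pc*, which RefSeq lists as *G6pc1*, all on the plus strand.
Pck1: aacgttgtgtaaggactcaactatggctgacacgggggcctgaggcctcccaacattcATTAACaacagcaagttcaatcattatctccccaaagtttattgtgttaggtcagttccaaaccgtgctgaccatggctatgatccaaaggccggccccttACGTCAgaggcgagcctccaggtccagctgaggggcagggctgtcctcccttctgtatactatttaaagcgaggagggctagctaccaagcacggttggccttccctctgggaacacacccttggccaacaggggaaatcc
Pck2: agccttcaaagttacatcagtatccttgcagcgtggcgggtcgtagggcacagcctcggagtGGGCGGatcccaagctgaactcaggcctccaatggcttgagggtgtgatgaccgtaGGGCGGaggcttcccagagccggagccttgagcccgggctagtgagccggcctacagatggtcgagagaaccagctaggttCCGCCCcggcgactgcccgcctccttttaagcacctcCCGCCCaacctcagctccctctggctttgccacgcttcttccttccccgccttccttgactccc
G6pc: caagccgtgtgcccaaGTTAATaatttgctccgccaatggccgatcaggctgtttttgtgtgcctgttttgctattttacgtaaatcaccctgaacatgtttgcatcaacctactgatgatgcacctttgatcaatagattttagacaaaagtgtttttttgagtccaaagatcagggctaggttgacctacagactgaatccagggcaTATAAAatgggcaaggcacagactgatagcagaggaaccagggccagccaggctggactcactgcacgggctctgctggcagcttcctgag

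The letters searched were TATAAA (the TATA box), ACGTCA (part of the cAMP response element), GTTAAT (part of the HNF1 motif), CAAAGTCCA (an HNF4 motif), GGGCGG (the GC box bound by Sp1) and CACGTG (an E box). In the *Pck1* window, ACGTCA began 91 bases before the start site and GTTAAT was matched on the opposite strand 192 bases before it. ACGTCA was present in 7.94% and GTTAAT in 7.45% of all 33469 promoters of the same length. The *Pck2* window held 4 matches to GGGCGG, of which those 51 and 14 bases before the start lay on the opposite strand, and 33.1% of all promoters held this motif. *G6pc* had TATAAA 41 bases before the start (14.2% of all promoters) and GTTAAT 234 bases before it. The HNF4 letters were in none of the 9 windows and in 0.391% of all promoters. CACGTG was found in the *Slc5a1* window alone among the 9, against 6.42% of all promoters. No matches overlapped in the 3 windows shown, and a match is a description of the letters, not of binding.

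Most of the genes were higher on average in the HD rats, but the rats of a group differed widely. The log2 fold change was above 0 for 8 of the 10 genes, against 51.3% of all tested genes, and below 0 for *Slc2a1* and *Slc2a5*. Its median over the 10 genes was 0.42, against 0.01 over all tested genes. In the quasi-likelihood test of edgeR, with *P* values adjusted over all tested genes, 0 of the 10 passed an adjusted *P* of 0.05 (background 0.0%, 0 of 11553 genes). An unadjusted *P* below 0.05 was found for *Pc* and *Fbp1*, 2 of the 10, against 10.6% of all tested genes. Both were higher in the HD rats, and 0 of the 10 were lower at this threshold, against 5.94% of all tested genes. DESeq2 gave an adjusted *P* of at most 0.05 to *Pc* alone among the 10, against 1.58% of all tested genes (182 genes). The CPM values of all HD rats lay above those of all AL rats for *Pc* and *Pck1*, against 7.25% of all tested genes, and the groups overlapped for the other 8. For none of the 10 did all HD rats lie below all AL rats, against 7.01% of all tested genes. The exact permutation test, which cannot go below a two-sided *P* of 0.1 with 3 rats against 3, gave 0.1 for *Pc* and *Pck1*, 0.2 for *Fbp1* and *Slc5a1* and 0.3 to 0.7 for the rest.

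**Figure D1:**
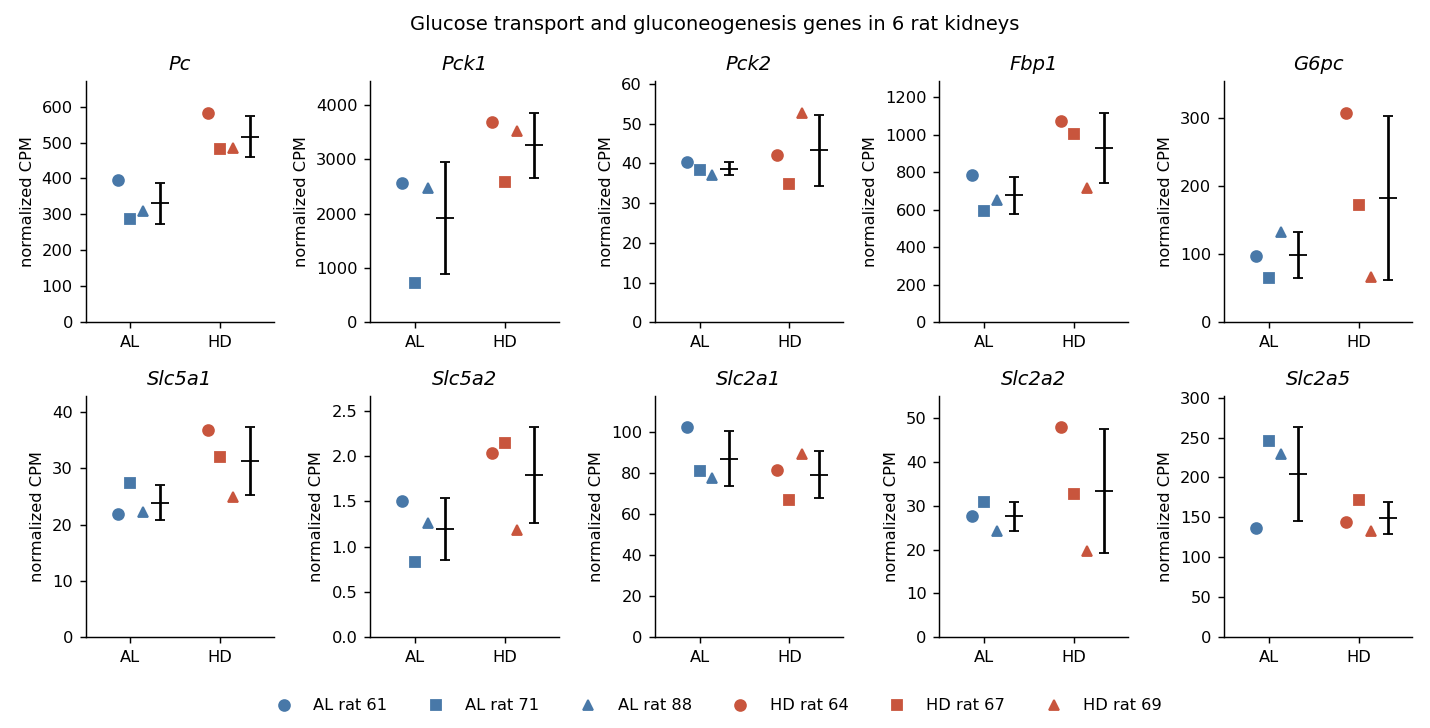
CPM of the 10 genes in each of the 6 rats, with the mean and SD of each group of 3 beside the points (every vertical axis is linear and starts at 0). The groups are apart for *Pc*, just apart for *Pck1*, and overlap for the other 8 genes, and the HD points of *G6pc* run from 67.2 to 308 CPM.

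Pyruvate carboxylase (*Pc*) makes oxaloacetate from pyruvate in mitochondria and so opens the path from lactate and alanine to glucose. The gene lies at chr1:226626841-226726329 (rn5, plus strand, 20 exons). Its level was 396, 287 and 310 CPM in AL rats 61, 71 and 88, and 583, 482 and 485 CPM in HD rats 64, 67 and 69. Every HD rat was above every AL rat, and this held on the scale of library size alone and in TPM as well. The mean was 331 ± 57.6 CPM in the AL group and 517 ± 57.7 CPM in the HD group (SD, 3 rats each). The log2 fold change was 0.64 (SE 0.16), which ranked 135 of the 11553 genes by its *P* in edgeR and did not pass after adjustment (adjusted *P* = 0.378). DESeq2 put the same difference at an adjusted *P* of 0.0247. Leaving out single rats gave values between 0.55 and 0.79. Adipocytes also use this enzyme. The 7 adipocyte markers summed to 281 to 416 CPM in the AL rats and 276 to 571 CPM in the HD rats. The part of adipocytes in the *Pc* difference was not tested.

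Cytosolic PEPCK (*Pck1*, chr3:177278783-177284732, plus strand, 10 exons) turns oxaloacetate into phosphoenolpyruvate and is the classic hormone-regulated enzyme of the path. Its level was 2558, 724.5 and 2480 CPM in AL rats 61, 71 and 88. In HD rats 64, 67 and 69 it was 3684, 2578 and 3526 CPM. Rat 71 stood far below the other 5 rats, and the lowest HD rat exceeded the highest AL rat by a small margin that was lost with library size alone and in TPM. The group means were 1921 ± 1037 CPM (AL) and 3263 ± 598 CPM (HD). A log2 fold change of 0.76 (SE 0.44) did not pass the edgeR test (adjusted *P* = 0.596), and DESeq2 gave an adjusted *P* of 0.442. It was 0.37 without rat 71 and 1.03 without rat 61. The size of the *Pck1* difference thus rested largely on a single AL rat.

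The mitochondrial form *Pck2* (chr15:38106930-38114552, plus strand, 9 exons) catalyses the same reaction on the other side of the inner membrane. It was measured at 40.4, 38.4 and 37.1 CPM in AL rats 61, 71 and 88, and at 42.2, 34.9 and 52.8 CPM in HD rats 64, 67 and 69. The AL rats lay within the range of the HD rats, so that the HD group held both the lowest and the highest value. The log2 fold change was 0.17 (SE 0.16, edgeR adjusted *P* = 0.778), and it shrank to 0.003 when rat 69 was left out. Per length, *Pck1* exceeded *Pck2* by 45.3, 13.5 and 47.7 times in TPM in AL rats 61, 71 and 88. The ratio was 62.3, 52.7 and 47.7 in HD rats 64, 67 and 69, so the cytosolic form dominated in every rat, least in rat 71.

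Fructose-1,6-bisphosphatase (*Fbp1*, chr17:391324-412426, minus strand, 6 exons) removes a phosphate from fructose bisphosphate in the direction of glucose. The AL values were 786, 594 and 649 CPM in rats 61, 71 and 88. The HD values were 1071, 1001 and 715 CPM in rats 64, 67 and 69. Rats 64 and 67 were above all AL rats, whereas rat 69 fell between AL rats 88 and 61. The mean was 676 ± 98.8 CPM (AL) and 929 ± 189 CPM (HD), with a log2 fold change of 0.46 (SE 0.19). The adjusted *P* was 0.460 with edgeR and 0.299 with DESeq2. The groups did not overlap when the level was read in TPM, where the AL rats spanned 785 to 864 and the HD rats 881 to 1210.

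The catalytic subunit of glucose-6-phosphatase (*G6pc*, chr10:89084064-89094266, plus strand, 5 exons) releases free glucose in the endoplasmic reticulum, the last step of the path. It was measured at 97.0, 65.8 and 133 CPM in AL rats 61, 71 and 88, and at 308, 172 and 67.2 CPM in HD rats 64, 67 and 69. HD rats 64 and 67 were above every AL rat, but rat 69 was close to the lowest AL rat. The highest HD value was 4.58 times the lowest, the widest span within a group for any of the 10 genes. At 0.89 (SE 0.51), its log2 fold change was the largest of the set and did not pass the test (edgeR adjusted *P* = 0.596, DESeq2 adjusted *P* = 0.705). It was 1.29 without rat 69 (edgeR adjusted *P* = 0.210) and 0.28 without rat 64. Thus HD rats 64 and 69 each decided the size of this difference. The carrier that brings glucose 6-phosphate to the enzyme, *Slc37a4*, was more even, with 221 ± 23.6 CPM in the AL group and 252 ± 23.1 CPM in the HD group (log2 fold change 0.19, SE 0.13, adjusted *P* = 0.660).

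Of the Na+-coupled carriers, SGLT1 (*Slc5a1*, chr14:83595212-83660531, minus strand, 15 exons) takes up glucose and galactose with high affinity in the later proximal tubule. It was measured at 21.8, 27.4 and 22.2 CPM in AL rats 61, 71 and 88, and at 36.8, 32.0 and 24.9 CPM in HD rats 64, 67 and 69. Rats 64 and 67 were above every AL rat and rat 69 was below AL rat 71. On the log2 scale the HD group was higher by 0.39 (SE 0.18, edgeR adjusted *P* = 0.50), and by 0.53 without rat 69 (adjusted *P* = 0.220).

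SGLT2 (*Slc5a2*, chr1:206728635-206734756, plus strand, 14 exons) is known as the main glucose carrier of the early proximal tubule and as the target of the gliflozin drugs. In these libraries it received few reads, with estimated counts of 19, 15 and 19 in AL rats 61, 71 and 88 and of 24, 43 and 37 in HD rats 64, 67 and 69. These corresponded to 1.51, 0.831 and 1.26 CPM in the AL rats and to 2.04, 2.15 and 1.18 CPM in the HD rats. Rats 64 and 67 were again highest, while rat 69 lay within the AL range. The log2 fold change was 0.57 with a wide error (SE 0.43, edgeR adjusted *P* = 0.699). The exons overlap those of *RGD1310127* on the opposite strand over 590 bases, 26.2% of the 2254-base transcript. Without strand information, reads from this stretch cannot be told apart between the genes. *RGD1310127* was measured at 33.3 to 49.5 CPM in the 6 rats, with a log2 fold change of -0.36 (edgeR adjusted *P* = 0.445).

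GLUT1 (*Slc2a1*, chr5:141964117-141992634, plus strand, 10 exons) is the facilitative carrier of cells that live mainly on glycolysis, including distal nephron segments and endothelium. It was measured at 102, 81.3 and 77.5 CPM in AL rats 61, 71 and 88, and at 81.7, 66.9 and 89.6 CPM in HD rats 64, 67 and 69. The groups overlapped, with the highest value in an AL rat and the lowest in an HD rat. Its log2 fold change of -0.13 (SE 0.16, edgeR adjusted *P* = 0.834) was the smallest in size of the set and was 0.001 without rat 61. The markers of endothelium summed to 103 to 277 CPM in the AL rats and 80.2 to 256 CPM in the HD rats.

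GLUT2 (*Slc2a2*, chr2:134112979-134144420, plus strand, 11 exons) is the low-affinity carrier by which glucose leaves proximal tubule cells. The AL values were close together at 27.6, 31.0 and 24.4 CPM in rats 61, 71 and 88. The HD values were 48.0, 32.7 and 19.6 CPM in rats 64, 67 and 69. Thus the HD rats spanned a range that enclosed all AL rats. A log2 fold change of 0.26 (SE 0.30, edgeR adjusted *P* = 0.823) became 0.55 without rat 69 (adjusted *P* = 0.279) and turned to -0.08 without rat 64. The direction of *Slc2a2* therefore rested on a single HD rat.

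GLUT5 (*Slc2a5*, chr5:170782871-170808467, plus strand, 12 exons) carries fructose across the luminal membrane. Its level was 137, 246 and 229 CPM in AL rats 61, 71 and 88, and 144, 171 and 133 CPM in HD rats 64, 67 and 69. AL rats 71 and 88 were above all other rats, and AL rat 61 was among the HD values. The mean was 204 ± 58.8 CPM in the AL group and 149 ± 19.8 CPM in the HD group (log2 fold change -0.45, SE 0.23, edgeR adjusted *P* = 0.534). Without rat 61 it was -0.67 (edgeR adjusted *P* = 0.160).

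**Figure D2:**
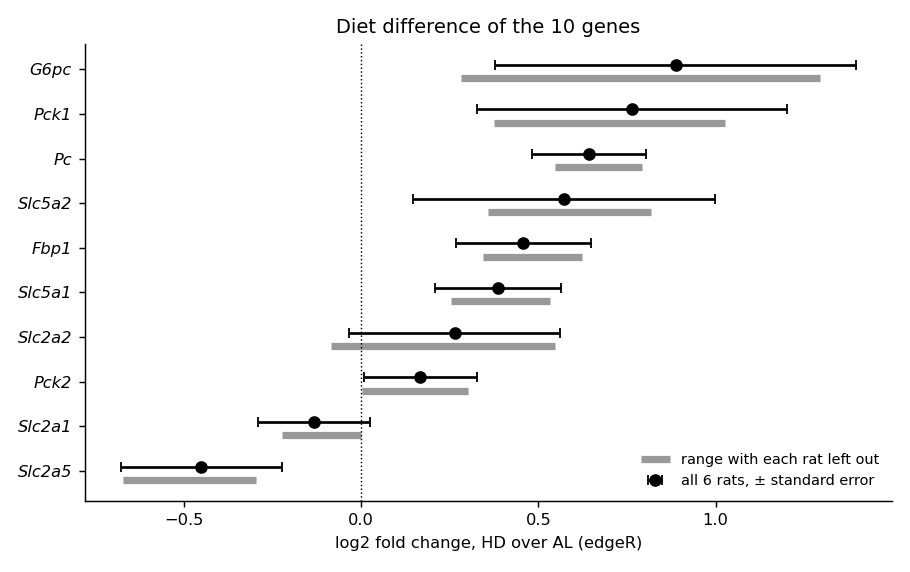
Log2 fold change (HD over AL) of the 10 genes by edgeR with its SE, and the lowest and highest value with a rat left out in turn. *G6pc* has the largest value (0.89) and a leave-one-out range of 0.28 to 1.29, while the range of *Pc* runs from 0.55 to 0.79.

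The plot of log2 fold changes shows both the error of each estimate and its dependence on single rats. For *Pc*, *Pck1*, *Fbp1*, *G6pc*, *Pck2*, *Slc5a1* and *Slc5a2* the value stayed above 0 whichever rat was left out, and for *Slc2a5* it stayed below 0. For *Slc2a1* and *Slc2a2* it did not keep its sign.

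Compared per length in TPM, the genes covered a wide range of levels. *Pck1* was highest with a mean of 1506 ± 603 TPM over the 6 rats (SD), above 99.3% of the tested genes, followed by *Fbp1* with 942 ± 176 TPM (98.3%). *Pc* reached 163 ± 38.4 TPM, *Slc2a5* 129 ± 44.4 TPM and *G6pc* 94.4 ± 58.1 TPM, and the ranges of these neighbours overlapped. *Slc2a1* followed with 50.3 ± 7.38 TPM, *Pck2* with 33.9 ± 6.20 TPM, *Slc2a2* with 19.2 ± 5.64 TPM and *Slc5a1* with 16.9 ± 3.35 TPM. Each of these also overlapped its neighbour. The neighbours whose ranges did not overlap were *Fbp1* (lowest 785 TPM) against *Pc* (highest 215.5 TPM) and *Slc5a1* (lowest 12.5 TPM) against *Slc5a2* (highest 1.38 TPM).

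**Figure D3:**
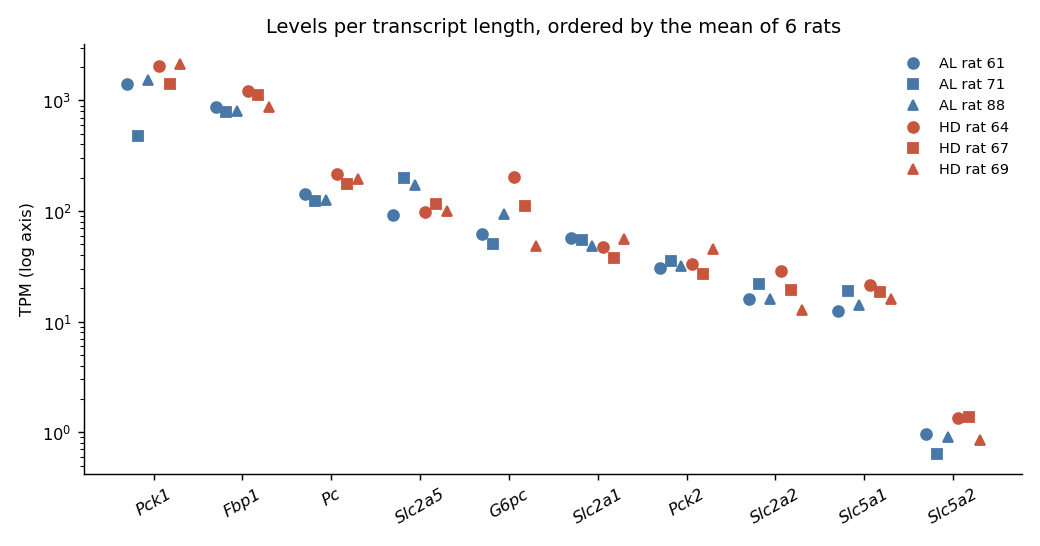
TPM of the 10 genes in the 6 rats on a log10 axis, ordered by their mean. *Pck1* and *Fbp1* lie highest, and *Slc5a2* lies apart at the bottom with 0.63 to 1.38 TPM.

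At 1.01 ± 0.295 TPM, *Slc5a2* was above 5.2% of the tested genes, and the *Slc5a1* level exceeded it by 12.9 to 29.9 times. The *Slc5a2* level is what RSEM assigned to a transcript that overlaps *RGD1310127* over 26.2% of its length. The part of this overlap in the low level was not tested, so the ratio describes the estimates only. Several other SLC5 carriers were listed at higher levels than *Slc5a2*, and the 3 with the highest means are given here, chosen after their values were seen. *Slc5a10* (SGLT5, a mannose and fructose carrier) had a mean of 196 TPM (134 to 233), *Slc5a9* (SGLT4) had 61.8 TPM (31.3 to 92.2), and *Slc5a11* (SGLT6) had 46.7 TPM (35.1 to 59.1). *Pdzk1ip1*, which encodes the accessory protein MAP17 that SGLT2 needs for activity, was at 716 TPM (607 to 869). The log2 fold changes were 0.01, 0.25, -0.07 and 0.14 in that order, and none passed the edgeR test.

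Single rats stood out across several of the genes. HD rat 64 had the highest CPM of all 6 rats for 6 genes (*Pc*, *Pck1*, *Fbp1*, *G6pc*, *Slc5a1* and *Slc2a2*). HD rat 69 was the lowest of its group for 6 genes (*Fbp1*, *G6pc*, *Slc5a1*, *Slc5a2*, *Slc2a2* and *Slc2a5*), and AL rat 71 was the lowest of its group for 5. When rat 69 was left out, 5 of the 10 genes had an edgeR *P* below 0.05 before adjustment (*Pc*, *Fbp1*, *G6pc*, *Slc5a1* and *Slc2a2*) and 0 after it, with adjusted *P* values from 0.201 to 0.279. In that fit 15.6% of all tested genes had a *P* below 0.05 before adjustment. The count was 1 of the 10 when rat 64, 67 or 88 was left out, against 5.53%, 8.31% and 5.25% of all tested genes in those fits. The proximal tubule marker sum was likewise highest in rat 64 (28410 CPM) and lowest within the HD group in rat 69 (23250 CPM). The thick ascending limb sum ran the other way, with 4400 CPM in rat 64, 5003 CPM in rat 67 and 7029 CPM in rat 69, against 6341 to 7403 CPM in the AL rats. The part of these sums in the differences between rats was not tested.

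**Figure D4:**
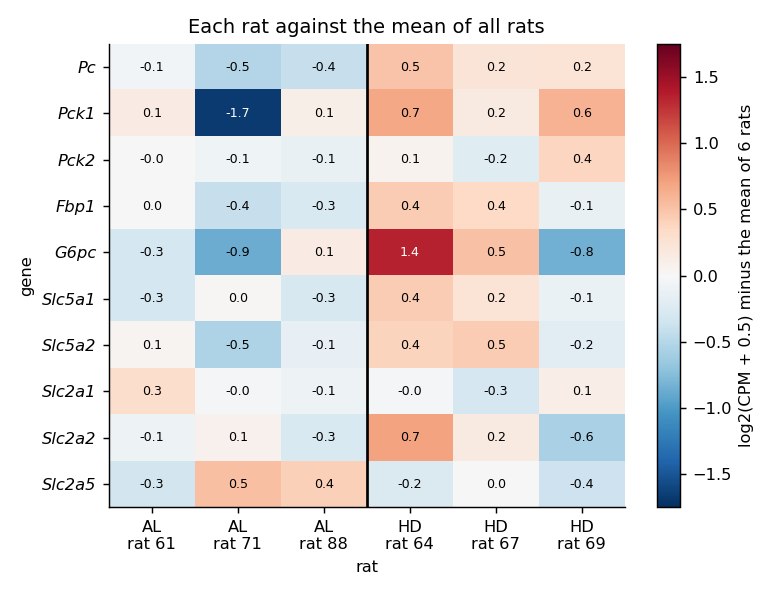
Deviation of each gene's log2 level from its mean over the 6 rats, with the AL rats at left and the HD rats at right (red above and blue below the mean). The lowest cell is *Pck1* in AL rat 71 (-1.68) and the highest is *G6pc* in HD rat 64 (1.35).

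The reversible enzymes shared by glycolysis and gluconeogenesis, listed together with the malate dehydrogenases *Mdh1* and *Mdh2*, gave small differences. Of 13 tested, 11 had a log2 fold change above 0 (median 0.17), against 51.3% of all tested genes. An unadjusted edgeR *P* below 0.05 was found for 1 (background 10.6%), and 0 passed after adjustment. Phosphoglycerate kinase (*Pgk1*) had 457 ± 49.9 CPM in the AL and 558 ± 10.8 CPM in the HD group (log2 fold change 0.29, SE 0.12, edgeR adjusted *P* = 0.468), and enolase (*Eno1*) had 1164 ± 80.6 and 1379 ± 71.9 CPM. *Tpi1*, *Pgk1* and *Eno1*, 3 of the 13, had all HD rats above all AL rats (background 7.25%). The neuronal enolase *Eno2* had a log2 fold change of -0.58 (SE 0.29, edgeR adjusted *P* = 0.541), with 5.59 ± 1.16 CPM in the AL and 3.72 ± 0.963 CPM in the HD group. The enzymes that run only toward glycolysis or pyruvate oxidation showed 7 values above and 3 below 0 among the 10 tested, with a median of 0.12. None of these 10 reached an unadjusted *P* of 0.05, and hexokinase (*Hk1*) came closest with 107 ± 22.2 CPM (AL) and 134 ± 8.04 CPM (HD). The phosphofructokinase subunits *Pfkl* and *Pfkp* had log2 fold changes of 0.19 and -0.32. The tested genes of the list called glucose-6-phosphatase partners were the carriers *Slc37a4* and *Slc37a1* and also the isozyme genes *G6pc3* and *Fbp2*. Of these, 4 of 4 were above 0 with a median of 0.13, and none reached an unadjusted *P* of 0.05. The values were 0.09 for *Slc37a1* and 0.16 for *Fbp2*.

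Genes that bring carbon to the path were mostly higher in the HD rats. Of the 20 tested, 16 had a log2 fold change above 0 (median 0.24), against 51.3% of all tested genes. An unadjusted edgeR *P* below 0.05 was found for 6 genes higher in the HD rats (background 4.66%), and none passed after adjustment. Sodium-coupled carriers of citrate and succinate led the list. *Slc13a2* (NaDC1), which reclaims these acids at the luminal membrane, was measured at 112, 85.7 and 111 CPM in the AL rats and at 184, 153 and 163 CPM in the HD rats (log2 fold change 0.70, SE 0.14, edgeR adjusted *P* = 0.352). *Slc13a3* (NaDC3), its basolateral counterpart, had 466 ± 34.8 CPM in the AL and 822 ± 180 CPM in the HD group (log2 fold change 0.82, SE 0.18, edgeR adjusted *P* = 0.368). *Slc5a8*, a carrier of lactate and other monocarboxylates, ranged from 7.37 to 11.8 CPM in the AL and from 16.3 to 37.9 CPM in the HD rats (log2 fold change 1.50, SE 0.33, edgeR adjusted *P* = 0.368). In each of these carriers all HD rats were above all AL rats. The same held for 7 of the 20 genes in all (background 7.25%). For 1 of the 20 all HD rats were below all AL rats (background 7.01%).

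The DESeq2 adjusted *P* was 0.00604 for *Slc13a2*, 0.00415 for *Slc13a3* and 0.00372 for *Slc5a8*. It was 0.0293 for *Gpd1*, which links glycerol to the path and is named after its values were seen. *Gpd1* had 259 ± 38.9 CPM in the AL and 376 ± 14.8 CPM in the HD group (log2 fold change 0.54, SE 0.14, edgeR adjusted *P* = 0.379).

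Other hexose carriers divided into 8 above and 5 below 0 among the 13 tested, with a median of 0.08. *Slc2a8* (GLUT8) and *Slc2a12* (GLUT12) had log2 fold changes of 0.44 and 0.36 (edgeR adjusted *P* = 0.479 and 0.620). The inositol carrier *Slc5a3* had a log2 fold change of -2.37 (SE 0.81, edgeR adjusted *P* = 0.406), but the AL values were 40.3, 3.60 and 9.13 CPM in rats 61, 71 and 88 and the HD mean was 3.36 ± 0.743 CPM. Rat 61 thus carried most of it, and leaving out a rat moved the value between -2.86 and -0.90. Of the 6 genes of fructose and polyol metabolism tested, 4 were above 0 (median 0.11). Aldose reductase (*Akr1b1*), which makes sorbitol, had 390 CPM in AL rat 88 against 23.3 and 99.0 CPM in the other AL rats and 23.3 to 35.3 CPM in the HD rats. Sorbitol dehydrogenase (*Sord*) had 392 ± 84.2 CPM in the AL and 591 ± 111 CPM in the HD group (log2 fold change 0.59, SE 0.20, edgeR adjusted *P* = 0.406), and the aldehyde dehydrogenase *Aldh1b1* had a log2 fold change of -0.55 (adjusted *P* = 0.525).

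Among 37 tested regulators of the path, 23 were above and 14 below 0 (median 0.07), against 51.3% above 0 over all tested genes. An unadjusted edgeR *P* below 0.05 was found for 7 higher genes (background 4.66%) and 2 lower genes (background 5.94%). The transcription factor *Cebpa*, known to act on the *Pck1* promoter, had 5.41 ± 0.636 CPM in the AL and 9.03 ± 0.319 CPM in the HD group (log2 fold change 0.74, SE 0.19, edgeR adjusted *P* = 0.398). *Mlxipl*, which encodes the glucose-sensing factor ChREBP, was at 124 ± 18.6 and 95.9 ± 4.25 CPM (edgeR adjusted *P* = 0.406). *Txnip*, a known target of ChREBP that limits glucose uptake, was at 312 ± 51.2 and 440 ± 73.1 CPM (edgeR adjusted *P* = 0.408). The groups did not overlap for any of these 3 genes. Among the 37 regulators, all HD rats were above all AL rats for 4 genes (background 7.25%). All HD rats were below all AL rats for another 4 genes (background 7.01%).

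**Figure D5:**
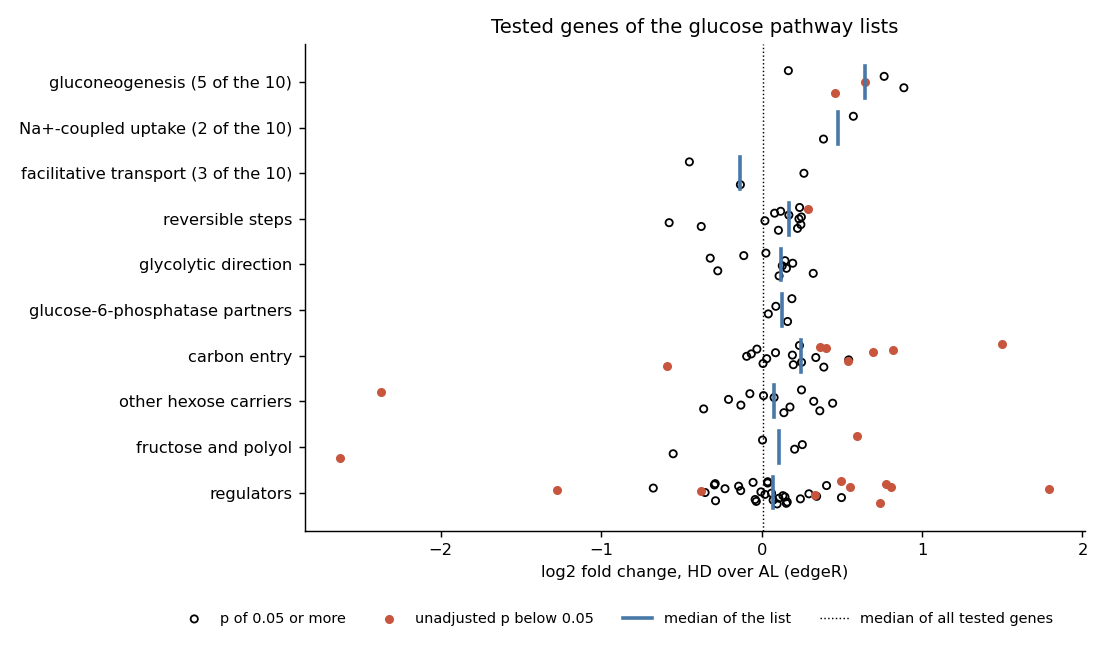
Log2 fold change (HD over AL, edgeR) of every tested gene in the 10 genes and the pathway lists, with each list's median as a bar and the median of all tested genes as a dotted line. Filled points have an unadjusted *P* below 0.05, and the gluconeogenic enzymes have the highest median (0.64), the facilitative carriers the only one below 0 (-0.13).

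Marker sums of other cell types were compared in the same way. All 8 podocyte markers had a log2 fold change above 0 (median 1.71), with sums of 73.1 to 185 CPM in the AL and 235 to 516 CPM in the HD rats. All 8 leukocyte markers were below 0 (median -1.30), with sums of 241 to 413 CPM in the AL and 146 to 312 CPM in the HD rats. The collecting duct markers summed to 2163 to 2245 CPM in the AL and 1846 to 2035 CPM in the HD rats, with 5 of 10 genes above and 5 below 0. All 5 thick ascending limb markers and 5 of the 6 endothelial markers were below 0, and all 7 adipocyte markers were above 0 (median 0.95). Of 8 hepatocyte markers only 2 had enough counts to be tested, and the 8 summed to 30.9 to 36.5 CPM in the AL and 24.9 to 38.3 CPM in the HD rats, most of it *Fga* (a fibrinogen chain). Intestinal markers reached at most 4.41 CPM and skeletal muscle markers at most 4.64 CPM in any rat. Erythroid markers summed to 1214 to 1419 CPM in the AL and 1137 to 1899 CPM in the HD rats. That sum includes *Slc4a1*, which is also among the collecting duct markers and had a log2 fold change of -0.56. The other erythroid markers, *Hbb*, *Hba1* and *Alas2*, had log2 fold changes of 0.56, 0.72 and 0.73. None of the 4 passed the edgeR test after adjustment. The part of these cell types in the differences of the glucose genes was not tested.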

How the data were processed

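Kidney RNA of 6 rats was measured by Illumina sequencing without strand marking. The authors quantified transcripts with RSEM 1.1.15 at default parameters against University of California Santa Cruz gene definitions for rn5. The authors deposited an estimated count (expected count) per transcript and rat, a posterior mean count, TPM, FPKM and the transcript length. TPM and FPKM are scaled to length and library. Filters on the reads are not given in the sources used here.

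Counts were summed per gene and rounded. The minimum was 30 counts in any rat, following the study's methods. The main test was edgeR 4.0.16 (quasi-likelihood, TMM, diet as factor, R 4.3.3), and DESeq2 1.42.0, which the study used, was an alternative. The *P* values were adjusted by Benjamini-Hochberg over 11553 genes, with a threshold of 0.05. The SE was the absolute log2 fold change divided by the square root of F. Exact two-sided permutation tests used log2 of CPM plus 0.5 over 10 divisions of the rats. Other alternatives were RLE size factors, library size alone, counts above 0 in any rat or at least 10 in every rat, robust edgeR, the posterior mean count, pseudocounts of 0.1 and 2, FPKM for the order, and leaving out each rat. The fits were tested on simulated data. Python 3.11.15, pandas 2.3.3, numpy 2.4.6, scipy 1.17.1 and matplotlib 3.10.9 were used.

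The 10 genes and the lists of pathway and marker genes were chosen with earlier results of these data known. Beyond the 10, the text names the 3 genes of a pathway list with the smallest *P* (marker lists are given by their sums) and the 3 genes most correlated with *Slc5a2* and *Pck1*. Any other gene is named after its values were seen. Results for some genes of the lists are not reported here.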

Additional observations from a re-analysis of the deposited data

How the results depend on the processing

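Of 130 recomputed fold changes of the 10 genes, 128 kept their direction. The exceptions were *Slc2a1*, 0.001 without rat 61 (range with a rat left out -0.22 to 0.001), and *Slc2a2*, -0.084 without rat 64 (range -0.084 to 0.548). DESeq2 called *Pc* (log2 fold change 0.64, adjusted *P* = 0.0247), so that 1 of the 10 genes passed in place of 0. The edgeR adjusted *P* of the 10 genes was 0.135 at the lowest, and the number with an unadjusted edgeR *P* below 0.05 ranged from 1 to 5 with a rat left out, against 2 with all rats. With library size alone, the median of all tested genes moved from 0.01 to -0.07, and the median of the glucose-6-phosphatase partners was 0.042 (0.125 with TMM). The median of the other hexose carriers (0.08) was -0.017 with every gene above a count of 0 and ranged from -0.073 to 0.132 with a rat left out, and that of fructose and polyol genes (0.11) from -0.031 to 0.243. Over all tested genes, 0 passed an adjusted *P* of 0.05 in edgeR, 1224 had an unadjusted *P* below 0.05, and DESeq2 called 182. No paired analysis was possible because the labels give the rats no numbers shared between the groups. The common biological variation between rats of a group was 0.242 (coefficient of variation), and *Slc5a2* had at most 43 counts in a rat. In the exact permutation test, library size alone moved the *P* of *Pck1* from 0.1 to 0.2, and pseudocounts of 0.1 and 2 moved none. FPKM gave the same order of levels as TPM.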

Other observations

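The genes whose levels followed *Slc5a2* most closely over the 6 rats were *Armc10*, *Sepp1* and *Tssc1*, with Pearson's r of 0.993, 0.992 and 0.991 on log2 CPM. Spearman's rho was 0.943, 0.943 and 1.0, and r was 0.988, 0.978 and 0.997 without the 2 rats farthest from the median. *Sepp1*, which encodes the selenium carrier selenoprotein P, was at 2610, 2190 and 2556 CPM in AL rats 61, 71 and 88 and at 3033, 3031 and 2460 CPM in HD rats 64, 67 and 69. In all, 98 tested genes had an r above 0.95 with *Slc5a2*, whose own counts are few. Genes of a rat share its library, depth and normalization, so these values describe the 6 libraries only.

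For *Pck1* the closest genes were *Vhl* (r = 0.986), *Psmd9* (0.982) and *Slc19a1* (0.979), each with a rho of 0.771, and 17 tested genes had an r above 0.95. Rat 71 was the lowest of the 6 rats in each of them, as in *Pck1*. *Vhl*, the substrate receptor that marks hypoxia-inducible factors for degradation, had 74.1 CPM in rat 71 and 86.4 to 89.8 CPM in the other rats. Without the 2 rats farthest from the median, r was 0.951, 0.740 and 0.858 in that order.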
